A study of Mus musculus with 6 samples.

Results

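*Snrnp25* and *Rhbdf1* are neighbouring genes upstream of the mouse α-globin cluster, and their contacts were read from Tri-C data of erythroid cells. These 2 genes came from a chosen list of 10 genes with start sites in the analysed region. They were taken with a 24.7 kb interval of chromosome 11 (build mm9) that spans both. It reaches 5.13 kb upstream of the *Snrnp25* start site and 2.7 kb upstream of the *Rhbdf1* start site. A contact belonged to the 2 genes when the midpoint of at least 1 of its NlaIII fragments lay in that interval. This rule used positions only. The interval held 109 NlaIII fragments in the genome sequence, and 101 of these occurred in the contact tables, of 88602 fragments named on the chromosome. In each library from 319 to 871 fragment pairs seen from R2 and from 1758 to 3041 seen from *Mpg* had an end in it.

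Tri-C is a form of Chromosome Conformation Capture (3C) in which long ligated fragments are enriched for a viewpoint and sequenced, so that a contact records 2 further fragments, called reporters, that lay near the viewpoint on the same allele. The study compared cells of wild type (WT) mice with cells of D3839 mice, which carry small deletions that remove the CTCF motifs at HS-38 and HS-39, sites at the upstream border of the α-globin domain. The viewpoints were the R2 enhancer, which is the strongest of the α-globin enhancers and lies downstream of those sites, and the promoter of *Mpg*, which lies upstream of them. The question of the comparison is how the upstream genes meet the globin enhancers and promoters when the border elements are mutated. All 6 libraries came from female C57BL/6 mice treated with phenylhydrazine in 3 doses, a drug that destroys red cells and fills the spleen with erythroid precursors, and from spleen cells selected for Ter-119, a surface marker of the erythroid lineage. There were 3 biological replicates of each genotype, each with both viewpoints, and the age of the mice is not given in the sources used here. The library preparation reagents of the WT libraries differed from those of the D3839 libraries, so that reagent and genotype cannot be told apart in any comparison of genotypes given here. The tables hold no expression, so erythroid markers and the activity of the genes could not be checked in them.

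*Rhbdf1* codes for iRhom1, a catalytically inactive member of the rhomboid family that takes part in the trafficking of the ADAM17 protease. *Snrnp25* codes for a protein of the minor spliceosome, which removes a rare class of introns. Both genes are expressed in many tissues and are not globin genes, and they keep their place beside the α-globin cluster in mammals. CTCF binds DNA in a given orientation and halts the cohesin complex as it extrudes chromatin loops, and such sites commonly border domains of preferred contact.

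In mm9, *Snrnp25* (ENSMUSG00000040767.4) runs on the plus strand of chromosome 11 from 32105415 to 32108984, and *Rhbdf1* (ENSMUSG00000020282.12) starts at 32122300 and covers 12.7 kb on the minus strand. The 2 genes lie tail to tail, so that the start site of *Rhbdf1* is on the side of the globin cluster. That start site was 28.7 kb from the R2 viewpoint and 4.6 kb from the *Mpg* viewpoint, against 45.6 kb and 21.5 kb for *Snrnp25*. A promoter window of 4 kb, centred on each start site, and the rest of each gene were counted separately. The *Snrnp25* promoter window held 19 NlaIII fragments and the rest of the gene (1.57 kb) held 7. The *Rhbdf1* promoter window held 14 fragments and the rest of the gene (10.71 kb) held 54, of which 49 were seen from each viewpoint. Of the rest of *Rhbdf1*, 49.5% is annotated as exon, against 3.3% of its promoter window.

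The unit of these measurements is the NlaIII fragment, and for the promoter windows and the rest of *Rhbdf1* 1 fragment is shown per viewpoint, the one with the highest share of matrix ends averaged over all 6 libraries of a viewpoint. By raw counts, or within a genotype, other fragments could lead. They are printed on the plus strand of mm9 with the cut sites (catg) at both ends in capitals. The leading fragment by that mean in the *Rhbdf1* promoter window from R2 (chr11:32122777-32122950) lies upstream of the start site, as does the one that led from *Mpg* (chr11:32123483-32123768). In the rest of *Rhbdf1* the same intronic fragment (chr11:32118251-32118463), chosen after its values had been seen, had the highest mean from both viewpoints. The fragment that led the *Snrnp25* promoter window from *Mpg* (chr11:32107250-32107479) lies in an intron, and from R2 it was a longer one (chr11:32106536-32106853, 28.9% exon), which is not printed.
*Rhbdf1* promoter window, R2 viewpoint: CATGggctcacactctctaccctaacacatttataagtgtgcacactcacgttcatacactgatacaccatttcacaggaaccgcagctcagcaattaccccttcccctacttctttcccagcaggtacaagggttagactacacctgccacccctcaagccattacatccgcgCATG
*Rhbdf1* promoter window, *Mpg* viewpoint: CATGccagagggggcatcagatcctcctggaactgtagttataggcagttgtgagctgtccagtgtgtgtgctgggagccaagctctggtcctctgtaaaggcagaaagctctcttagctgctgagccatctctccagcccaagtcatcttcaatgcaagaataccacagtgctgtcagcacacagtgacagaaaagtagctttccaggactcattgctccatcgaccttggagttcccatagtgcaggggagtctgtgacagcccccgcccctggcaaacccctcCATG
rest of *Rhbdf1*, both viewpoints: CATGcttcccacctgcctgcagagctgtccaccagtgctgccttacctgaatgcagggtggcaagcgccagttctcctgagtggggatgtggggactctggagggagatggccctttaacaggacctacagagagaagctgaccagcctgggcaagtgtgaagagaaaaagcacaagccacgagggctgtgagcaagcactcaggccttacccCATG
*Snrnp25* promoter window, *Mpg* viewpoint: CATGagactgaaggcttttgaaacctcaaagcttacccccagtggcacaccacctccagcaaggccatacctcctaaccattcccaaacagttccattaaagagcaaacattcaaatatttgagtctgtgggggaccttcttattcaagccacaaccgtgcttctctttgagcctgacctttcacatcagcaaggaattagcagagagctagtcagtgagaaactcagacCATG

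The promoter of *Snrnp25* is shown from 250 bases before to 50 after its start site as RefSeq gives it, which is identical to the mm9 sequence at chr11:32105165-32105464 on the plus strand. The RefSeq promoter of *Rhbdf1* is not used here. No capitals are set in the *Snrnp25* promoter because no searched motif occurred in it, read on both strands: the 12-base CTCF core motif, the GATA motif AGATAA, the CACCC box CCACACCC and the NlaIII site CATG each had 0 matches, with no overlap between these motifs. Among 32851 RefSeq promoters of the same length, the CTCF core occurred in 8.61%, the GATA motif in 11.2%, the CACCC box in 3.56% and CATG in 61.1%. The 300 bases are 58% G or C and hold 22 CpG dinucleotides.
*Snrnp25* promoter: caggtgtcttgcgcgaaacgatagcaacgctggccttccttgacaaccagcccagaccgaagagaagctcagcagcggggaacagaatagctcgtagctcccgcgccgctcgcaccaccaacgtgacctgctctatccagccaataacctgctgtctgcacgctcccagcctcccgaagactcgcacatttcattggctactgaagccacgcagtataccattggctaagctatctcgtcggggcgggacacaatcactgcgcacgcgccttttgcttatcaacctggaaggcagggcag

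The CTCF core letters occurred 7 times in the interval, which is 0.283 per kb, against 0.289 per kb over the 180 kb of the region. Of these matches, 3 lay in the rest of *Rhbdf1*, the stretch whose contacts are described most fully here, and 1 is shown from its promoter window outside the start site itself. Each is printed with 9 bases on both sides in the orientation of the match, with the CTCF core in capitals. The match at chr11:32117032-32117043 lies on the plus strand in a non-coding exon, and the others lie on the minus strand, at chr11:32110307-32110318 in an intron, at chr11:32110843-32110854 in coding sequence and at chr11:32121843-32121854 in an intron.
*Rhbdf1* intron, minus strand: tcaagttcgCCGAGAGGTGGCatgggaaga
*Rhbdf1* coding sequence, minus strand: gggctacttCCATGAGGAGGCcacactctg
*Rhbdf1* non-coding exon, plus strand: aataaatgaCCACGAGGTGGCgccaactgc
*Rhbdf1* intron, promoter window, minus strand: tcccagggcCCCGAAGGTGGCgtctgaaac

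The R2 tables held from 18823 to 26893 chromosome 11 contacts per library and the *Mpg* tables from 31203 to 39540. Contacts with both ends in the 180 kb region, which reaches 35.4 kb upstream of the *Snrnp25* start site and past the globin genes, without the 3 bins of 1 kb at the viewpoint, formed a matrix of 8651 to 12955 contacts in WT and 14625 to 16115 in D3839 for R2. For *Mpg* these were 10237 to 16295 and 18040 to 18951. For R2 the matrix took in 47.1% ± 1.11 of all chromosome 11 contacts of a WT library against 64.7% ± 1.95 of a D3839 library (SD, n = 3 each), and for *Mpg* 37.0% ± 4.20 against 51.6% ± 2.24. Every value given below is a share of the matrix unless the whole chromosome is named, since these scales move apart between genotypes. No library repeated another.

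Seen from R2, the body of *Rhbdf1* was met more often in D3839 cells, while its promoter and both windows of *Snrnp25* gave no call as shares of the matrix. The rest of *Rhbdf1* received 289, 303 and 505 reporter ends in the WT libraries (replicates 1, 2 and 3 in this order throughout) against 1088, 874 and 1032 in the D3839 libraries, where each contact has 2 ends. As a share of matrix ends this was 1.74% ± 0.215 for WT against 3.19% ± 0.196 for D3839 (SD, n = 3 each). All 3 D3839 shares lay above all WT shares. The log2 fold change was 0.87 (SE 0.163, adjusted p = 0.00253 by edgeR's quasi-likelihood test with Benjamini-Hochberg adjustment over 187 bins and windows), and of these 187 3.21% rose and 0.535% fell. The two-sided exact permutation test of the share gave p = 0.1, the smallest that 3 against 3 libraries allow. Without D3839 replicate 1 the change was 0.83 and was no longer called (edgeR, adjusted p = 0.0822).

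The *Rhbdf1* promoter window received 105, 164 and 158 ends from R2 in WT and 268, 354 and 302 in D3839. Its share was 0.703% ± 0.214 for WT against 0.993% ± 0.195 for D3839 (SD, n = 3 each). WT replicate 2 lay above D3839 replicates 1 and 3, so that the groups overlapped. The log2 fold change of 0.50 (SE 0.232) was not called (edgeR, adjusted p = 0.226). On the scale of all chromosome 11 contacts it was 0.96 and called (edgeR, adjusted p = 0.00212), with no overlap, and the rest of the gene was at 1.33 (adjusted p = 7.81e-07). Without WT replicate 2 it was 0.77 and was called (edgeR, adjusted p = 0.0329), and it was called also when each fragment pair was counted once (0.60, adjusted p = 0.0066) and when contacts within a bin were left out (0.59, adjusted p = 0.0477).

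The *Snrnp25* promoter window received 81, 71 and 152 ends from R2 in WT and 166, 158 and 298 in D3839. The shares of 0.474% ± 0.0976 (SD, n = 3) and 0.660% ± 0.229 (SD, n = 3) overlapped, and the log2 fold change of 0.47 (SE 0.268) was not called (edgeR, adjusted p = 0.379). D3839 replicate 3 alone stood above the WT libraries, and without it the change was 0.15. On the scale of all chromosome 11 contacts the change was 0.92 and called (edgeR, adjusted p = 0.012), with no overlap. The rest of *Snrnp25* received 22, 45 and 81 ends in WT and 76, 68 and 88 in D3839, where the WT libraries spread over the range of the D3839 libraries. Its log2 fold change was 0.10 (SE 0.375, edgeR, adjusted p = 0.917), and it was -0.22 without WT replicate 1. It was 0.55 on the scale of all chromosome 11 contacts (edgeR, adjusted p = 0.285) and 0.72 with contacts within a bin left out (adjusted p = 0.288), not called in either.

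From the *Mpg* viewpoint the same windows were met far more often, and no window was called between the genotypes. The *Rhbdf1* promoter window received 1330, 1224 and 1447 ends in WT and 1899, 2053 and 1736 in D3839, or 5.25% ± 0.773 (SD, n = 3) and 5.16% ± 0.441 (SD, n = 3). The log2 fold change was -0.03 (SE 0.124, edgeR, adjusted p = 0.87), with overlapping groups. On the scale of all chromosome 11 contacts it was 0.47 and called, and it was 0.30 and called when each fragment pair was counted once (edgeR, adjusted p = 0.0075 and 0.0167).

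The rest of *Rhbdf1* received 2277, 1937 and 2713 ends from *Mpg* in WT and 3384, 3088 and 2836 in D3839. These were 8.98% ± 0.586 (SD, n = 3) and 8.43% ± 0.538 (SD, n = 3), and the log2 fold change was -0.09 (SE 0.0908, edgeR, adjusted p = 0.479). The groups overlapped. On the scale of all chromosome 11 contacts the change was 0.40 and called (edgeR, adjusted p = 0.0104).

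At *Snrnp25* the *Mpg* viewpoint gave 316, 290 and 390 ends in the promoter window in WT and 564, 479 and 513 in D3839, a share of 1.29% ± 0.112 (SD, n = 3) against 1.41% ± 0.0849 (SD, n = 3). The log2 fold change was 0.13 (SE 0.162, edgeR, adjusted p = 0.564). On the scale of all chromosome 11 contacts it was 0.62 and called (edgeR, adjusted p = 0.0188), and it was -0.15 when each fragment pair was counted once. The rest of the gene received 255, 226 and 292 ends in WT and 300, 310 and 323 in D3839, and its share of 1.01% ± 0.105 (SD, n = 3) in WT stood above 0.847% ± 0.0522 (SD, n = 3) in D3839. All 3 D3839 shares were below all WT shares, while the log2 fold change of -0.25 (SE 0.186) was not called (edgeR, adjusted p = 0.328). Of all 1 kb bins tested from *Mpg*, 21% had every D3839 share below every WT share, and 9.09% of bins and windows were called lower. On the scale of all chromosome 11 contacts the direction turned, to 0.24, with every D3839 share above every WT share.

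**Figure D1:**
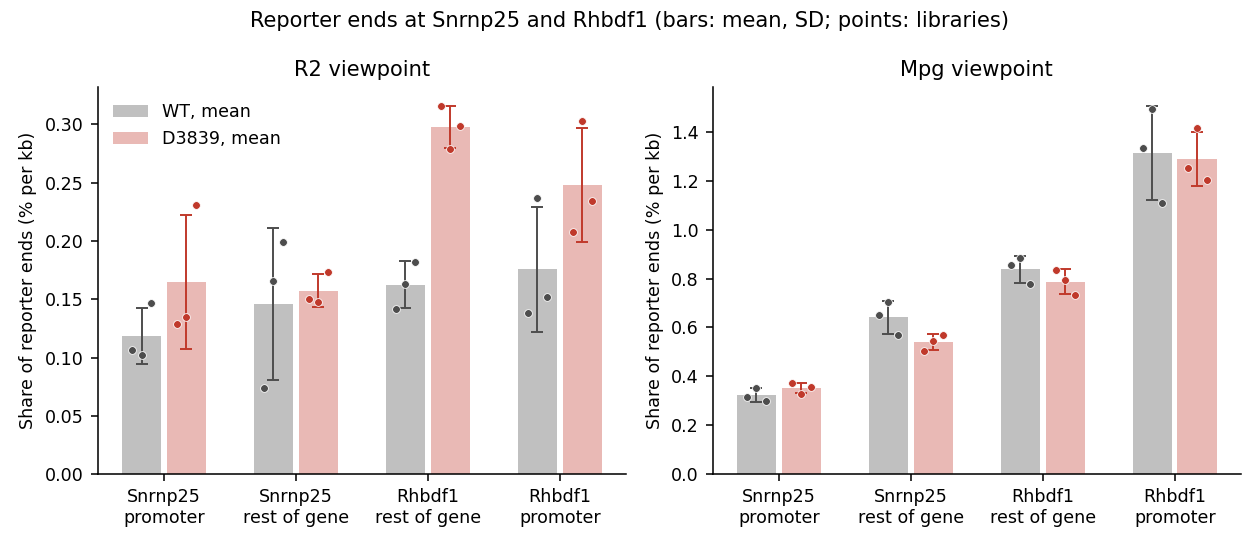
Share of matrix reporter ends per kb in the promoter window and the rest of each gene, from the R2 viewpoint (left) and the *Mpg* viewpoint (right), with points for single libraries, bars for the mean of 3 libraries and error bars for the SD. Only the rest of *Rhbdf1* seen from R2 separates the genotypes and is called, with means per kb of 0.162% for WT and 0.298% for D3839.

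In bins of 1 kb, the difference seen from R2 lay mostly along the body of *Rhbdf1* and reached into its promoter window. Of the 25 bins of the interval, 10 had all D3839 shares above all WT shares and 0 had them below, against 12.6% above and 8% below among all bins tested. Of the 10 bins centred in the rest of *Rhbdf1*, 7 did so, and all 10 had a positive log2 fold change, from 0.26 to 1.29 with a median of 0.91. The median over all bins was 0.02. The bins from 32120001 (1.39) and 32121001 (0.98), centred in the *Rhbdf1* promoter window, also had all D3839 shares above all WT shares. So did the bin from 32104001 (0.83) in the *Snrnp25* promoter window. A single bin of the interval was called, from 32119001 to 32120000 in an intron of *Rhbdf1* near the edge of its promoter window. It received 30, 36 and 108 ends in WT and 181, 198 and 228 in D3839 (log2 fold change 1.29, SE 0.312, edgeR, adjusted p = 0.0123). Its share was higher in every D3839 library than in any WT library, and the call was lost without WT replicate 1 (1.03, adjusted p = 0.0666), D3839 replicate 1 (1.39, adjusted p = 0.182), D3839 replicate 2 (1.26, adjusted p = 0.074) or D3839 replicate 3 (1.23, adjusted p = 0.103).

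Around that bin the same order of the groups was seen without a call by edgeR. The bin from 32118001 received 55, 60 and 42 ends in WT and 173, 130 and 183 in D3839 (0.97, edgeR, adjusted p = 0.0784; DESeq2, adjusted p = 0.0471), and the bin from 32120001 received 2, 16 and 15 ends in WT and 54, 40 and 38 in D3839 (1.39, adjusted p = 0.149). The bin from 32120001 lies mostly in the promoter window. The order was also kept in the bin from 32121001, which lies wholly within that window. It received 5, 14 and 17 ends in WT and 32, 40 and 34 in D3839 (0.98, edgeR, adjusted p = 0.348). The order was not kept in the next bin. The bin from 32122001, which holds the *Rhbdf1* start site, received 47, 60 and 21 ends in WT and 56, 74 and 79 in D3839, a log2 fold change of 0.02 (SE 0.421, adjusted p = 0.992). These bins were chosen after their values had been seen.

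Single fragments show how thin the counts behind this profile are. The intronic fragment of *Rhbdf1* printed above was met 18, 10 and 5 times from R2 in WT and 46, 55 and 50 times in D3839. Its rank rests on the D3839 libraries (mean 0.162%, against 0.0572% in WT, where other fragments were higher), so the order of its genotypes follows from the choice and is no result. From *Mpg* it was met 85, 85 and 86 times in WT and 126, 109 and 114 times in D3839, with overlapping shares. The leading fragment of the *Rhbdf1* promoter window from R2 was met 31, 21 and 13 times in WT and 14, 29 and 31 times in D3839, which overlap. The fragment that holds the *Rhbdf1* start site (32121876 to 32122710), chosen for its position, was met 6, 25 and 3 times from R2 in WT and 32, 23 and 28 times in D3839, and 49, 68 and 64 times from *Mpg* in WT and 108, 152 and 76 times in D3839. In the *Snrnp25* promoter window, the leading fragment from R2 was met 13, 1 and 14 times in WT and 23, 4 and 29 times in D3839, so that WT replicate 2 and D3839 replicate 2 were both low. The fragment that holds the *Snrnp25* start site (32105034 to 32105622) was met 8, 13 and 3 times from R2 in WT and 6, 10 and 16 times in D3839.

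From *Mpg*, 0 of 25 bins of the interval were called in either direction by edgeR, with 1 higher and 1 lower at an unadjusted p under 0.05 and 1 called by DESeq2. All D3839 shares lay above all WT shares in 2 bins and below them in 1, against 20.5% and 21% of all bins. The median log2 fold change over the interval was -0.06, and it was -0.12 over all bins. The called share over all bins and windows from this viewpoint was 9.09% in each direction.

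**Figure D2:**
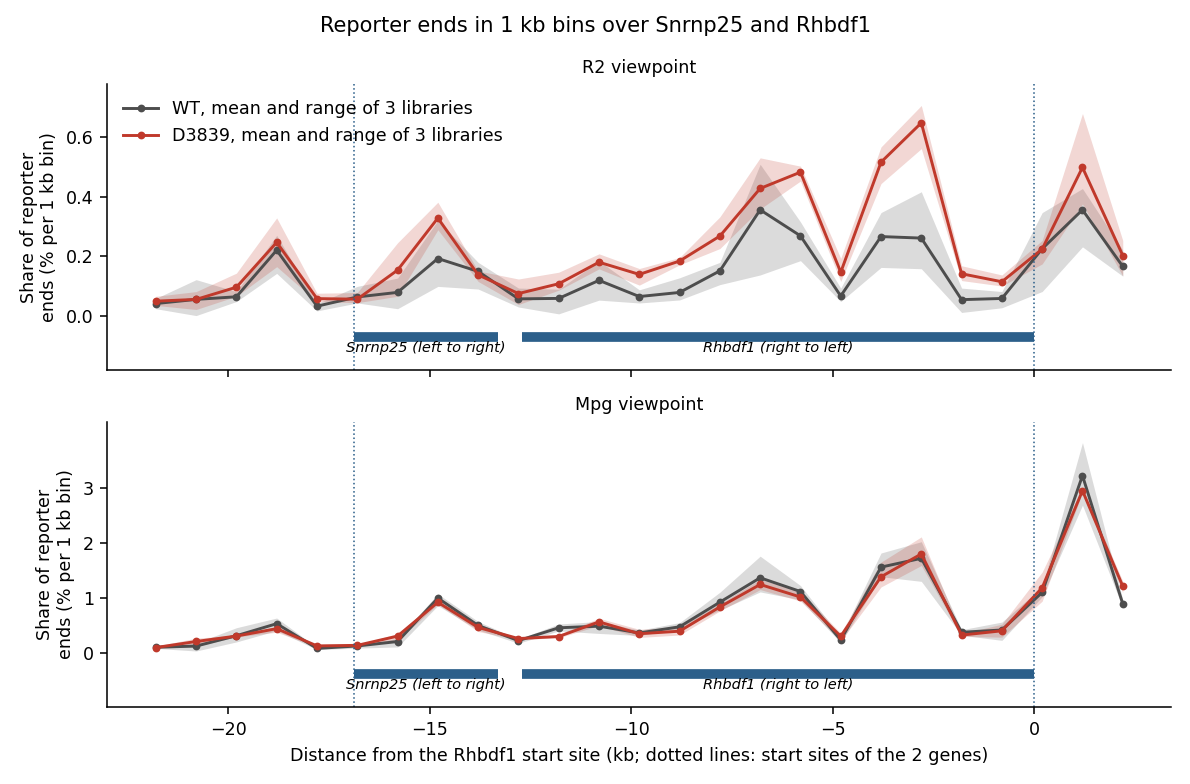
Share of matrix reporter ends in 1 kb bins against the distance from the *Rhbdf1* start site in kb, from R2 (top) and *Mpg* (bottom), with the mean (line) and range (band) of 3 libraries per genotype and the 2 genes as blue bars. From R2 the D3839 line runs above the WT line along the body of *Rhbdf1* and meets it at the start site, and from *Mpg* the lines follow each other.

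Within each gene the promoter was set against the rest, per kb. From *Mpg*, the *Rhbdf1* promoter window received more ends per kb than the rest of the gene in 6 of 6 libraries, with a mean ratio of 1.56 in WT and 1.64 in D3839 (range 1.43 to 1.78, two-sided exact sign-flip permutation test over 6 libraries p = 0.03125, the smallest possible, adjusted p = 0.0625 over 4 gene and viewpoint pairs). The *Snrnp25* promoter window received less than the rest of its gene in 6 of 6 libraries, with a ratio of 0.504 in WT and 0.653 in D3839 (exact sign-flip test p = 0.03125, adjusted p = 0.0625). The window nearer to the viewpoint had the higher value in both genes, and distance and gene part cannot be told apart here. The *Rhbdf1* promoter window lies 2.6 to 6.6 kb from the *Mpg* viewpoint and the rest of the gene 6.6 to 17.3 kb, while the *Snrnp25* promoter window lies farther (19.5 to 23.5 kb) than the rest of that gene (17.9 to 19.5 kb).

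From R2 the ratio depended on the unit of length. The ratio at *Rhbdf1* was 1.06 in WT and 0.825 in D3839, above 1 in 2 of 6 libraries (exact sign-flip test p = 0.594), although this window was the nearer to R2. Per NlaIII fragment, of which the promoter window holds 3.5 per kb and the rest of the gene 5.04 per kb, the same ratio was 1.52 and 1.19, above 1 in 5 of 6 libraries (exact sign-flip test p = 0.0625, adjusted p = 0.0833). At *Snrnp25* it was 0.87 in WT and 1.01 in D3839 per kb. The genotypes did not separate in these ratios (exact permutation test p = 0.4 for *Rhbdf1* and 0.6 for *Snrnp25*), so the larger change in the rest of *Rhbdf1* than in its promoter was not resolved by this test. From *Mpg* the *Snrnp25* ratio was higher in all 3 D3839 libraries than in WT (log2 difference 0.37, exact permutation test p = 0.1, adjusted p = 0.4), and the difference was -0.0163 when each fragment pair was counted once.

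Since both viewpoints were captured from the same libraries, their shares were compared within a library. Each of the 4 windows lies nearer to the *Mpg* viewpoint (2.6 to 23.5 kb) than to R2 (26.7 to 47.6 kb). A higher share from *Mpg* therefore cannot be told apart from an effect of distance. Every window was met more often from *Mpg* than from R2 in 6 of 6 libraries (exact sign-flip test p = 0.03125 each, also after adjustment over 4 windows), by a mean of 6.33-fold at the *Rhbdf1* promoter, 4.04-fold at the rest of *Snrnp25*, 3.70-fold at the rest of *Rhbdf1* and 2.47-fold at the *Snrnp25* promoter. At *Rhbdf1* this excess was lower in each D3839 library than in any WT library. At the rest of the gene it was 6.02-, 5.40- and 4.27-fold in the WT libraries against 2.64-, 2.85- and 2.45-fold in D3839, a log2 difference of -0.97 with no overlap (exact permutation test p = 0.1, adjusted p = 0.2 over 4 windows). At the promoter it was 9.67-, 6.31- and 7.28-fold in WT and 6.02-, 4.67- and 5.13-fold in D3839, a log2 difference of -0.54, again without overlap and with the same p-values. At both windows of *Snrnp25* the genotypes overlapped (exact permutation test p = 0.5).

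The 10 promoter windows listed for the locus place the 2 genes. From R2 in WT, *Snrnp25* (0.474%) and *Rhbdf1* (0.703%) stood near *Mpg* (0.517%) and above *Il9r*, the gene next upstream (0.225%), while the other 6 promoters, among them those of *Nprl3* and the globin genes, lay between 3.28% and 8.94%. In D3839 *Snrnp25* was at 0.660%, *Mpg* at 0.974%, *Rhbdf1* at 0.993% and *Il9r* at 0.279%, and the same other 6 lay between 3.46% and 7.11%. The orders of *Snrnp25*, *Mpg* and *Rhbdf1* were not tested. By the study's methods, fragments that were capture targets of another viewpoint were excluded. The *Mpg* promoter was such a target, so its share from R2 may miss part of its window. At *Rhbdf1* and *Snrnp25* the shares of the genotypes overlapped without a call, while both were called on the scale of all chromosome 11 contacts. Of the 10 promoters, 1 rose from R2 (*Mpg*, a DNA repair glycosylase gene, log2 fold change 0.92, edgeR, adjusted p = 0.0204) and 0 fell. From *Mpg*, *Rhbdf1* had the second highest share in WT (5.25%, after *Hbq1a* at 6.62%) and the highest in D3839 (5.16%), at a distance of 4.6 kb against 73.2 kb for *Hbq1a*. The share of *Hbq1a* fell to 4.09% in D3839 (log2 fold change -0.69, edgeR, adjusted p = 0.0161), and with it the rank of *Rhbdf1* changed. From this viewpoint 1 promoter rose (*Nprl3*, 0.78, edgeR, adjusted p = 0.0236) and *Hbq1a* was the 1 that fell.

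The stretches on both sides were used to see whether the difference from R2 was one of the whole flank. The interval of the 2 genes held 3.48% ± 0.356 of matrix ends for WT against 5.52% ± 0.176 for D3839 (SD, n = 3 each), a 1.59-fold difference with no overlap. The flank around *Il9r* changed 1.07-fold and the stretch from *Mpg* to R1 1.08-fold, the latter also with all D3839 shares above all WT shares. The log2 change of the interval exceeded that of its neighbours by 0.57 and 0.55 (exact permutation test p = 0.1 each, the smallest possible). From *Mpg* the interval held 17.8% ± 1.70 for WT against 17.4% ± 0.885 for D3839 (SD, n = 3 each), while the *Il9r* flank held 6.03% and 3.71% and the stretch from *Mpg* to R1 34.6% and 40.6%, both without overlap. The log2 change of the interval was 0.65 above that of the *Il9r* flank and differed from that of the stretch to R1 by -0.26 (exact permutation test p = 0.1 each). On the whole-chromosome scale, contacts with an end in the interval went from 3.02% ± 0.0741 of a WT library to 6.02% ± 0.269 of a D3839 library for R2 (SD, n = 3 each), against 12.5% ± 0.697 and 15.5% ± 0.925 for *Mpg*, with no overlap in either (exact permutation test p = 0.1 each).

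The other ends of these contacts were first placed as inside the interval, elsewhere in the region or beyond it. From R2, both ends lay in the interval in 32.6% ± 7.85 of its contacts for WT against 33.2% ± 4.82 for D3839 (SD, n = 3 each), and from *Mpg* in 38.0% ± 2.56 and 38.3% ± 4.33. Partners elsewhere in the region, on the basis of all contacts of the interval, made up 44.5% ± 6.82 for WT and 54.4% ± 3.47 for D3839 from R2 (SD, n = 3 each), where the groups overlapped, and 29.9% ± 0.807 and 40.3% ± 2.86 from *Mpg*, where they did not. Partners outside the region made up 22.9% ± 1.06 for WT against 12.4% ± 2.78 for D3839 (SD, n = 3 each) from R2, and 32.1% ± 2.36 and 21.3% ± 2.07 from *Mpg*, without overlap in either case (exact permutation test p = 0.1 each). The matrix leaves out these outside partners. It also leaves out partners in the 3 bins of 1 kb at the viewpoint, which are counted here as elsewhere in the region.

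Partners within the region were counted in 14 segments that tile it, and contacts of every pair of segments were tested. Segment borders at the enhancers and CTCF sites are approximate. They were read to the nearest kb from the study's description of the locus, since the sample labels give no coordinates for them. The promoter windows and the rest of *Rhbdf1* are segments as defined above, while the segment downstream of the *Snrnp25* promoter window (2.2 kb) holds the rest of that gene and the stretch up to the end of *Rhbdf1*. From R2, of 54 tested pairs with an end in the interval 1 rose and 0 fell, while 4.44% of all 90 tested pairs rose and 2.22% fell. The pair that rose joined the rest of *Rhbdf1* with the α-globin genes, the segment of *Hba-a1*, *Hbq1b* and *Hba-a2*. It was seen 15, 6 and 25 times in WT and 85, 92 and 71 times in D3839, or 0.14% ± 0.0637 (SD, n = 3) and 0.533% ± 0.0943 (SD, n = 3) of matrix contacts. Every D3839 share lay above every WT share, and the log2 fold change was 1.89 (SE 0.439, edgeR, adjusted p = 0.00664). The contacts were spread over 6 to 20 fragment pairs in WT and 56 to 63 in D3839, with at most 4 counts on any pair. The call was lost without WT replicate 2 (1.59, adjusted p = 0.0854) and without D3839 replicate 2 (1.75, adjusted p = 0.0814).

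The rest of *Rhbdf1* was also counted with each promoter window of the locus, including *Hbq1a*, whose start site lies just past the α-globin segment. The promoters of *Hba-a1* and *Hba-a2* (adult α-globin) and of *Hbq1b* and *Hbq1a* (θ-globin) were each seen at most 9 times with it in any WT library. The *Hbq1b* window was met with it 4, 0 and 9 times from R2 in WT and 45, 32 and 28 times in D3839. *Hbq1a* was met 0, 7 and 8 times in WT and 33, 27 and 18 times in D3839. For *Hba-a1* the counts were 3, 3 and 8 against 19, 23 and 19, and for *Hba-a2* 4, 1 and 7 against 16, 20 and 13. The groups did not overlap at any of these 4, nor at *Nprl3* (3, 0 and 3 in WT, 10, 11 and 8 in D3839) and *Hba-x*, the embryonic globin gene (0, 3 and 3 in WT, 7, 19 and 12 in D3839), with an exact permutation test of the share at p = 0.1 for each of the 6. The *Il9r*, *Snrnp25*, *Mpg* and *Rhbdf1* promoter windows overlapped between genotypes, and among all tested segment pairs 22.2% had every D3839 share above every WT share. Neighbouring windows share contacts, so these counts are not independent.

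The *Rhbdf1* promoter window was met with the α-globin genes from R2 26, 14 and 8 times in WT and 25, 25 and 23 times in D3839, a log2 fold change of -0.06 (SE 0.547, edgeR, adjusted p = 0.94). Of these 4 globin promoters, *Hbq1a* alone had every D3839 share of contacts with it above every WT share (0, 2 and 4 in WT, 7, 8 and 8 in D3839). With the *Mpg* promoter window the *Rhbdf1* promoter window was met 5, 3 and 0 times in WT and 10, 24 and 10 times in D3839, also without overlap. Other windows of the interval were met less with the α-globin genes in D3839 without a call: the 2.2 kb segment downstream of the *Snrnp25* promoter window 6, 12 and 9 times in WT and 4, 8 and 1 times in D3839, with all D3839 shares below all WT shares (-1.63, adjusted p = 0.181), and the 0.7 kb upstream of the *Rhbdf1* promoter window 13, 1 and 5 times in WT and 2, 0 and 1 times in D3839 (-3.10, adjusted p = 0.0661). With the segment of the R1 enhancer and HS-29 the *Rhbdf1* promoter window was met 3, 8 and 10 times in WT and 39, 25 and 15 times in D3839 (1.32, SE 0.617, adjusted p = 0.177), where every D3839 share was above every WT share. The rest of *Rhbdf1* was met with that segment 26, 22 and 17 times in WT and 64, 65 and 87 times in D3839 (1.09, SE 0.421, adjusted p = 0.0754). The difference in change between the 2 windows was not tested, and these pairs were chosen after their values had been seen. Over the 54 tested pairs of the interval 45 had a positive log2 fold change and the median was 0.80, against a median of 0.40 over all pairs. In 13 of them every D3839 share lay above every WT share and in 1 below, against 22.2% and 7.78% of all tested pairs.

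**Figure D3:**
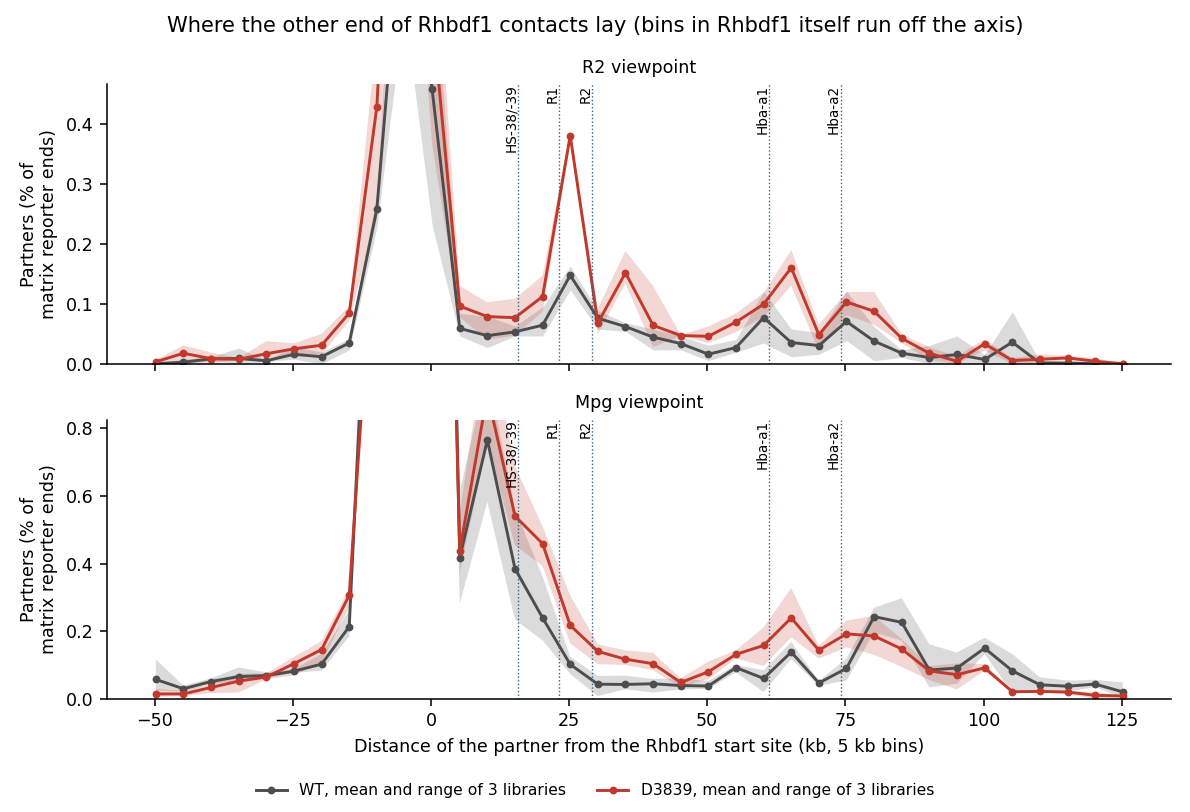
Share of matrix reporter ends that were the other end of a contact with *Rhbdf1* (promoter window or rest of the gene), in 5 kb bins by distance from its start site in kb, from R2 (top) and *Mpg* (bottom), with the mean (line) and range (band) of 3 libraries per genotype. Bins inside *Rhbdf1* exceed the axis, the 3 bins of 1 kb at each viewpoint are left out, and from R2 the D3839 line stands above the WT line at R1 and near *Hba-a1*.

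From *Mpg*, 8 of 66 tested pairs with an end in the interval rose and 0 fell, while 19.6% of all 102 tested pairs rose and 2.94% fell. All 8 had their other end past HS-38/-39, where 35 pairs were tested, and 0 of 31 pairs with both ends upstream of the deleted sites were called, of which 3 were higher and 0 lower at an unadjusted p under 0.05. DESeq2 called 3 higher and 5 lower of the 66 pairs, with 3 higher and 2 lower among the 35 past HS-38/-39 and 0 higher and 3 lower among the 31 upstream. The split at HS-38/-39 was made after the values had been seen. Among the 66 pairs of the interval, every D3839 share lay above every WT share in 12 and below in 3, against 27.5% and 6.86% of all tested pairs. Of the 8 pairs, 3 held the rest of *Rhbdf1*, 3 its promoter window, 1 the 0.7 kb upstream of that window and 1 the *Snrnp25* promoter window. The 0.7 kb stretch was met with the α-globin genes 2, 0 and 3 times in WT and 27, 13 and 10 times in D3839, with no overlap (2.76, SE 0.796, edgeR, adjusted p = 0.0206), a pair chosen after its values had been seen. DESeq2 gave an adjusted p of 0.0496, and the edgeR call was lost without D3839 replicate 1 (2.26, adjusted p = 0.159) or D3839 replicate 2 (2.90, adjusted p = 0.0739).

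The pair with the smallest p joined the rest of *Rhbdf1* with the segment from R2 to the *Nprl3* promoter, which holds the enhancers R2, R3 and Rm. It was seen 27, 21 and 21 times in WT and 72, 97 and 98 times in D3839 (log2 fold change 1.42, SE 0.323, edgeR, adjusted p = 0.00786), with no overlap of the shares. Contacts of the *Rhbdf1* promoter window with R1 and HS-29 were seen 12, 5 and 10 times in WT and 31, 45 and 57 times in D3839 (1.80, SE 0.411, adjusted p = 0.00786), again with no overlap. These calls were kept under every setting and left-out library tried. Contacts of the rest of *Rhbdf1* with the α-globin genes were seen 48, 25 and 78 times in WT and 145, 175 and 111 times in D3839 (1.06, SE 0.303, adjusted p = 0.0206). The groups did not overlap, and DESeq2 gave 0.70 (adjusted p = 0.0943). That call was also lost without WT replicate 1 (1.08, edgeR, adjusted p = 0.0516), WT replicate 2 (0.85, adjusted p = 0.0525), D3839 replicate 1 (1.08, adjusted p = 0.0746) or D3839 replicate 2 (0.88, adjusted p = 0.108).

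In the edgeR calls from *Mpg*, *Snrnp25* appeared through its promoter window, in contacts with the segment from HS-38/-39 to R1. These were seen 5, 9 and 8 times in WT and 34, 31 and 26 times in D3839, with no overlap (1.51, SE 0.437, edgeR, adjusted p = 0.0206), and this pair was chosen after its values had been seen. DESeq2 gave 1.15 (adjusted p = 0.136), and it called instead contacts within the 2.2 kb segment downstream of that window lower (67, 56 and 83 in WT, 64, 66 and 72 in D3839, DESeq2, adjusted p = 0.0153; edgeR, adjusted p = 0.161). The call was lost without WT replicate 1 (1.32, edgeR, adjusted p = 0.0507), WT replicate 3 (1.38, adjusted p = 0.0688), D3839 replicate 1 (1.44, adjusted p = 0.0746) or D3839 replicate 2 (1.48, adjusted p = 0.0844). With the segment from R2 to the *Nprl3* promoter the same window was met 15, 2 and 6 times in WT and 10, 9 and 3 times in D3839 (-0.56, SE 0.748, adjusted p = 0.668), and with the α-globin genes 12, 8 and 10 times in WT and 23, 12 and 7 times in D3839 (-0.04, SE 0.533, adjusted p = 0.957).

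**Figure D4:**
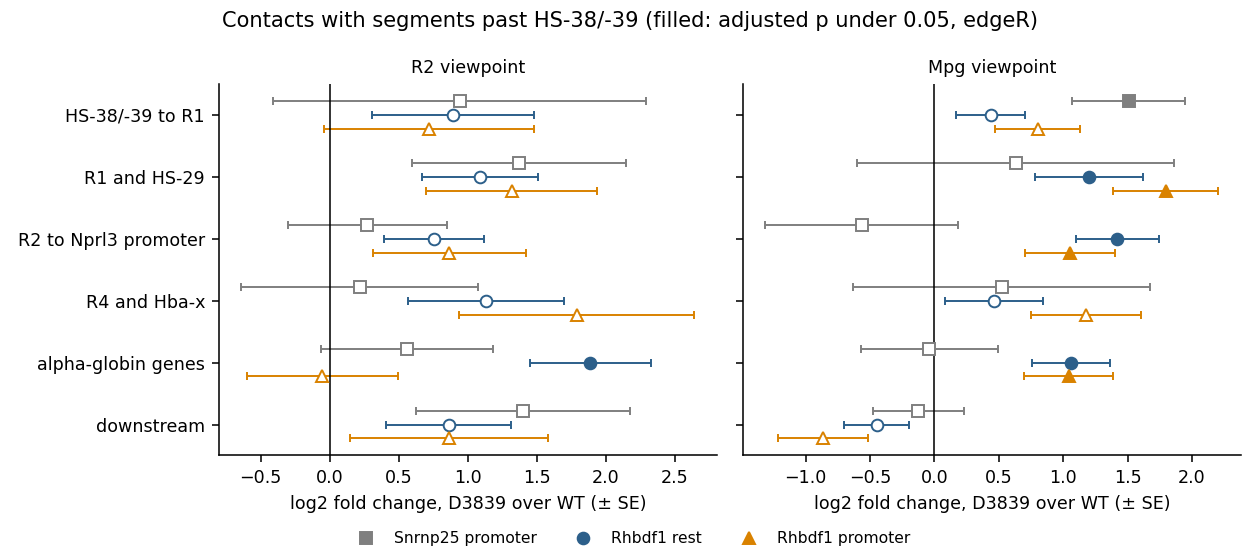
log2 fold change (D3839 over WT) with its standard error for contacts of the *Snrnp25* promoter window, the rest of *Rhbdf1* and the *Rhbdf1* promoter window with the 6 segments past HS-38/-39, from R2 (left) and *Mpg* (right), where filled symbols mark an adjusted p under 0.05. Filled symbols are the rest of *Rhbdf1* with the α-globin genes from R2 and, from *Mpg*, 6 pairs of *Rhbdf1* and 1 of *Snrnp25*.

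The 2 promoters were seldom seen together. From R2 a contact of the *Snrnp25* promoter window with the *Rhbdf1* promoter window was counted 0, 2 and 0 times in WT and 11, 3 and 6 times in D3839 (log2 fold change 2.52, SE 1.25, edgeR, adjusted p = 0.181). From *Mpg* it was counted 16, 7 and 13 times in WT and 14, 17 and 10 times in D3839 (-0.31, SE 0.479, adjusted p = 0.723). Neither difference was called. The 2.2 kb segment downstream of the *Snrnp25* promoter window was met with the rest of *Rhbdf1* 1, 1 and 6 times from R2 in WT and 7, 19 and 13 times in D3839 (1.73, SE 0.828, adjusted p = 0.177).

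Among the partners within the region, the share past HS-38/-39 was also given for each window, where each window end counts its own partner. From *Mpg* it was 15.7%, 15.9% and 13.6% for the *Rhbdf1* promoter window in WT and 18.8%, 22.9% and 21.3% in D3839, with means of 15.1% ± 1.25 (SD, n = 3) and 21.0% ± 2.06 (SD, n = 3). For the rest of *Rhbdf1* it was 15.4%, 13.8% and 14.0% in WT and 18.5%, 23.1% and 18.3% in D3839. All D3839 values exceeded all WT values in both windows (exact permutation test p = 0.1 each, adjusted p = 0.4 over 8 window and viewpoint pairs). When partners within 5 kb of the window were left out, the difference at the *Rhbdf1* promoter turned from 5.94 to -3.07 percentage points. The 2 *Snrnp25* windows from *Mpg*, and all 4 windows from R2, had overlapping groups, with means between 15.6% and 18.5% from *Mpg* and between 32.0% and 44.1% from R2.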

How the data were processed

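The authors deposited, for each library and viewpoint, raw counts of unique contacts, each between 2 NlaIII fragments of chromosome 11 (mm9). By the study's methods they trimmed reads (Trim Galore), aligned them (Bowtie), removed PCR duplicates and kept reads with at least 2 reporters. Of the 12 tables all were used. Depth was 8651 to 18951 matrix contacts per library, and counting intervals cover counting error alone.

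Fragments were placed by midpoint, and 3 bins of 1 kb centred on the viewpoint were dropped. Ends in 1 kb bins and windows, and contacts of segment pairs, with at least 10 counts over 6 libraries were tested with edgeR 4.0.16 (R 4.3.3, quasi-likelihood test, matrix total as library size, adjusted p under 0.05). Shares were compared by exact tests (scipy 1.17.1). The edgeR tests were checked on simulated counts. Of simulated 2-fold changes, 9 of 19 bins and 5 of 12 segment pairs were recovered for R2. For *Mpg* these were 12 of 20 and 3 of 13. Of 4-fold changes, 14 of 20 bins and 7 of 10 pairs were recovered for R2, and 20 of 20 and 10 of 12 for *Mpg*. Among unchanged rows, 1 of 133 bins and 1 of 67 pairs were called for R2 and 0 for *Mpg*. A 2-fold change could thus often go uncalled. DESeq2 1.42.0, TMM, chromosome 11 totals, filters, bin and window sizes, the replicate block and each left-out library were alternatives.

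The members, windows and lists were chosen with earlier results of these data known. Named were, of bins and segment pairs, the called ones with the lowest p (up to 3 per direction), and the leading fragment of each promoter window. Other bins, pairs and fragments in the text were chosen after their values had been seen, or for their position. Gene positions are those of the mm9 annotation.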

Additional observations from a re-analysis of the deposited data

How the results depend on the processing

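Scaling mattered most. With all chromosome 11 contacts as library size the median log2 fold change over all bins and windows moved from 0.02 to 0.48 for R2 and from -0.10 to 0.39 for *Mpg*. From R2 the *Snrnp25* promoter (0.92) and *Rhbdf1* promoter (0.96) were then called. From *Mpg* the *Snrnp25* promoter (0.62), the *Rhbdf1* promoter (0.47) and the rest of *Rhbdf1* (0.40) were called. Both *Rhbdf1* windows and the rest of *Snrnp25* (0.24) turned upwards from *Mpg*. On that scale 12 bins and 12 segment pairs of the interval rose from R2 and 8 bins and 16 segment pairs from *Mpg*. With TMM the *Mpg* viewpoint gave 0.0446 at the *Rhbdf1* promoter, 1 bin that rose, and 4 segment pairs that rose and 2 that fell. DESeq2 called 2 bins higher from R2 and 1 from *Mpg*, where 3 segment pairs rose and 5 fell. The median log2 fold change over all *Mpg* pairs was 0.38 as reported, 0.12 with TMM and 0.03 with DESeq2.

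Counting choices moved values near 0. With contacts within a bin left out, the rest of *Snrnp25* from R2 moved from 0.10 to 0.72 without a call, and the *Rhbdf1* promoter was called from R2 (0.59). From *Mpg* the *Snrnp25* promoter (-0.0312) and *Rhbdf1* promoter (0.0578) then changed sign. Counting each fragment pair once gave 0.60 at the *Rhbdf1* promoter from R2 (called), and from *Mpg* -0.15 at the *Snrnp25* promoter, 0.30 at the *Rhbdf1* promoter, and log2 promoter ratios of -0.0163 for *Snrnp25* and 0.32 for *Rhbdf1* (D3839 minus WT). Counting each contact once per window gave 0.12 at the *Rhbdf1* promoter and 0.00468 in the rest of *Rhbdf1* from *Mpg*, and leaving out 3 bins on each side of the viewpoint gave 0.0316 at the promoter. Leaving out partners within 5 kb turned the *Rhbdf1* promoter share past HS-38/-39 to -3.07 points. A filter of 50 ends or bins of 2 kb gave 2 bins that rose from R2, and no filter gave 5 segment pairs that rose from *Mpg*.

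Same-numbered replicates did not deviate together (mean correlation 0.00428 for R2 and 0.0315 for *Mpg*), so the numbers were not taken to pair the libraries. With the replicate block, 2 bins and 2 segment pairs of the interval rose from R2, 11 segment pairs rose and 1 fell from *Mpg*, and the rest of *Rhbdf1* from R2 was at 0.88.

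Without 1 library at a time, the log2 fold changes from R2 ran from 0.15 to 0.66 at the *Snrnp25* promoter, -0.22 to 0.40 in the rest of *Snrnp25*, 0.34 to 0.77 at the *Rhbdf1* promoter and 0.78 to 0.96 in the rest of *Rhbdf1*. From *Mpg* the *Rhbdf1* promoter ran from -0.13 to 0.0779. Bins that rose numbered 0 to 4 from R2, and bins that fell 0 to 1 from *Mpg*. Segment pairs that rose numbered 0 to 3 from R2 and 2 to 8 from *Mpg*, and those that fell 0 to 1 from each. The cause was not tested for any of these changes. Of the settings run on the reported values, 269 left a main value on its side and 32 moved it by more than the spread or by over 1.5 times. A further 16 reversed it, some of these with a call, 6 brought a call without reversing it and 1 lost one. Of those on single bins and pairs 79 kept the call and 41 lost it.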
